A study of Mus musculus with 12 samples.

Results

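A group of 131 genes kept at least 0.85 of its untreated transcript level in mES cells at 1 and 3 nM dTAG13. It stood lower at the highest dose, and by the group's median part of the drop was already present at 10 nM. BRG1 is the main ATPase of the mSWI/SNF chromatin remodelling complexes in these cells. The 131 genes were chosen by their RNA-seq values and came from 24421 genes in the count table, of which 9786 had a mean of at least 5 read pairs in every 1000000 counted (CPM) without dTAG13. A gene entered the group when its mean CPM at 1 nM and at 3 nM dTAG13 was each at least 0.85 of the 0 nM mean while its 100 nM mean was at most 0.67 of it. The values at 0, 1, 3 and 100 nM therefore define the group and are given as a description. Where a count of calls in a comparison that includes one of them is printed, it describes the group and supports nothing. The 0.3 nM and 10 nM libraries took no part in the choice, and the difference between those doses is the comparison that was tested. It is not fully separate from the choice, because the 0.3 nM libraries were numbered with the 3 nM libraries, as described below.

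All libraries came from mouse ES cells labelled B6 (the line was made from C57BL/6J blastocysts), grown in 2i plus LIF, in which an FKBP12-F36V degron had been knocked into Brg1. Knock-in colonies were grown from single cells, and whether all libraries came from the same colony is not stated. The degron lets the small molecule dTAG13 send tagged BRG1 to the proteasome, and more dTAG13 leaves less BRG1. Cells received 0.3, 1, 3, 10 or 100 nM dTAG13 for 24 h, or no dTAG13 (labelled as control and written here as 0 nM). Total RNA was sequenced in 2 libraries per dose and 12 in all.

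The mSWI/SNF complexes slide and evict nucleosomes, which keeps DNA at enhancers and promoters open to transcription factors and polymerase. In mES cells they work beside the pluripotency factors, and enhancers are among the sites they bind most. Genes differ in how much remodeller they need to stay transcribed, and a dose series of a degrader can order genes by the BRG1 level at which their transcript drops.

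Library totals ran from 4663484 to 6375582 read pairs, and the Rn45s ribosomal RNA gene took 10.5 to 19.4% of them. Smarca4, the gene of BRG1, kept 391 to 460 CPM in all libraries. Markers of mES cells summed to 3718 to 4379 CPM, and none of the markers checked was among the 131 genes. Within that sum Nanog had 497 and 506 CPM at 0 nM and 745 and 738 CPM at 100 nM. Tfcp2l1 had 1155 and 1214 CPM at 0 nM and 778 and 788 CPM at 100 nM. Markers of other cell types also moved with the dose. From the 0 nM to the 100 nM libraries, neural markers summed to 76.0 and 90.7 CPM and then 159 and 162 CPM, trophectoderm markers to 43.5 and 46.95 CPM and then 59.1 and 65.8 CPM, and mesoderm markers to 42.7 and 50.9 CPM and then 65.3 and 66.3 CPM. Primitive endoderm markers summed to 6.95 and 7.91 CPM and then 10.8 and 12.05 CPM, and markers of fibroblast or feeder cells to 3.56 and 3.79 CPM and then 6.86 and 8.87 CPM, with Dcn and Lum at 3 counts or fewer in every library. Primed epiblast markers were at 191 and 206 CPM at 0 nM and 271 and 318 CPM at 3 nM. They were at 289 and 304 CPM at 10 nM and 262 and 268 CPM at 100 nM. At 3 nM neural markers summed to 116 and 131 CPM, trophectoderm markers to 61.7 and 69.9 CPM and mesoderm markers to 73.2 and 75.5 CPM. All of these sums were thus already higher at 3 nM, where the 131 genes had kept their level. The primitive endoderm sum (6.43 and 7.18 CPM) and the fibroblast or feeder sum (3.42 and 4.07 CPM) overlapped their 0 nM values there. Single genes made up most of some of these sums. Dnmt3b, in the primed epiblast sum, had 160 and 176 CPM at 0 nM and 289 and 238 CPM at 3 nM. Eomes, in the trophectoderm and mesoderm sums, had 35.6 and 31.2 CPM at 0 nM and 53.4 and 50.6 CPM at 3 nM. Sox4 of the primed epiblast sum and Gata3 of the trophectoderm sum were lower at 100 nM than at 0 nM. A higher sum therefore does not mean that each of its markers rose. The part of these sums in the results was not tested. The first 3 nM library stood apart, with the fewest read pairs and the lowest Rn45s share, and the replicate counts at 3 nM differed by a chi-square of 15.6 per degree of freedom against 1.96 to 9.04 at the other doses. Without it the rule gave 99 genes, of which 87 were among the 131. In bulk RNA, fewer cells with a transcript and less transcript per cell cannot be told apart.

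The 131 genes kept their level up to 3 nM, as the rule requires, and stood lower at 10 nM and again at 100 nM. Their median level with 0.3 nM was 99.9% of the 0 nM level, with 1 nM 96.9% and with 3 nM 95.0%. In the edgeR fit 93 of the 130 genes covered had a negative log2 fold change at 3 nM against 0 nM, as had 50.9% of all genes tested. The median was -0.12 in the group and -0.005 in all genes, so most members already stood slightly lower at 3 nM. The rule used both doses, so these values are a description. It was 79.8% at 10 nM and 58.3% at 100 nM. The median gene had thus covered 48.0% of its whole fall by 10 nM, with an interquartile range from 28.1 to 63.9%. Another 297 genes of the same expression class had dropped to 0.75 of their 0 nM mean or lower by 1 nM and also met the 100 nM limit, and these early-falling genes had medians of 80.6, 64.7, 58.8, 49.3 and 43.5% of 0 nM along the 5 rising doses. Among all 9786 genes with 5 CPM the median stayed between 99.3 and 103% at every dose.

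**Figure D1:**
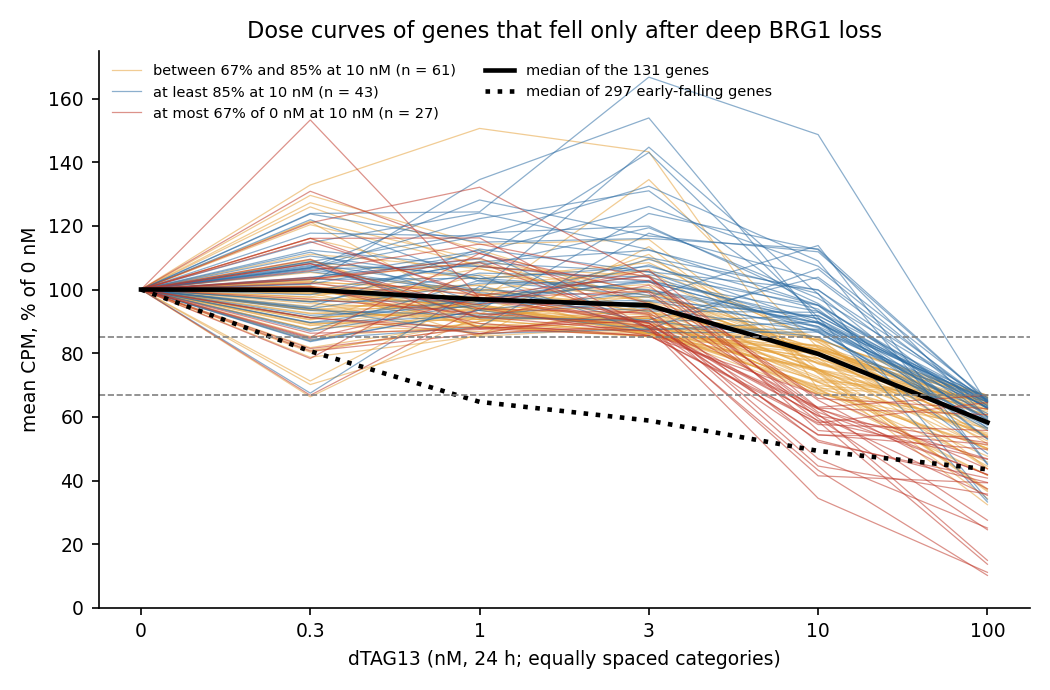
Mean CPM of each of the 131 genes as a percent of its 0 nM mean (y axis) at 6 dTAG13 doses (x axis, nM, equally spaced), with line colour set by the level at 10 nM, a solid black line for the median of the group and a dotted line for the median of 297 early-falling genes. The group's median stays near 100% to 3 nM, where the definition set limits at 1 and 3 nM only. It reaches 79.8% at 10 nM and 58.3% at 100 nM, while the median of the early-falling genes is already at 64.7% at 1 nM.

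Levels at 10 nM split the group into 27 genes that had fallen to 67% of 0 nM or lower, 61 genes between 67 and 85%, and 43 genes that still held 85% or more. The 27 genes included Krt42, Inhbb, Aoah, Pou2f3, Bmp4 and Mras. The 43 genes included Htra1, Hmces, Dpp4, Gjb5, Wnt5b and Dusp14, and for 10 of the 131 genes the 10 nM mean lay above the 0 nM mean. Median levels at 100 nM were 41.8% in the 27, 58.8% in the 61 and 62.5% in the 43. These limits repeat those of the rule and were set on the same genes, so the classes are a description.

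Fold sizes at 100 nM were mostly small. At that dose 38 genes lay under 50% of 0 nM, and 5 lay at or under 25%. All 131 genes had both 100 nM libraries below both 0 nM libraries, which the rule favours. The share of all genes with such a separation was not counted at these doses, so nothing is read from it. edgeR's quasi-likelihood test called 118 of the 130 genes it covered lower at 100 nM than at 0 nM (6.83% of all 11378 genes tested were called lower), and nothing is read from that count because the same values chose the genes. Arhgef10 was the member left out of the fit, since its mean over the libraries was under 1 RPKM.

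Krt42, a type I keratin gene of epithelial intermediate filaments, had the lowest level of the group at 100 nM. It stood at 19.4 and 22.96 CPM at 0 nM, 23.6 and 20.2 CPM at 0.3 nM, 23.4 and 22.6 CPM at 1 nM, 23.8 and 13.5 CPM at 3 nM, 10.5 and 7.84 CPM at 10 nM, and 2.85 and 1.47 CPM at 100 nM. Both 10 nM libraries lay below every library of the lower doses, and both 100 nM libraries lay below both 10 nM libraries. The second 3 nM library, at 13.5 CPM, was already below both 0 nM libraries. Krt42 therefore met the 3 nM limit only through the first 3 nM library, the one that stood apart. The log2 fold change at 10 nM against 0.3 nM was -1.29 (SE, the standard error, 0.22, adjusted p = 0.000148 by edgeR).

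Inhbb encodes the beta B subunit of inhibin and activin, secreted factors of the TGF-beta family. Its libraries held 11.04 and 9.70 CPM at 0 nM, 12.2 and 11.9 CPM at 0.3 nM, 12.96 and 11.1 CPM at 1 nM, 9.01 and 9.23 CPM at 3 nM, 4.04 and 3.10 CPM at 10 nM, and 1.00 and 1.31 CPM at 100 nM. The 3 nM libraries already sat under the lower doses, and the 10 nM and 100 nM libraries lay lower still without overlap. Its log2 fold change at 10 nM against 0.3 nM, -1.79 (SE = 0.26, adjusted p = 1.77e-05), was the lowest of the 130 genes.

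Bmp4, a secreted ligand that works with LIF to hold mES cells undifferentiated through ID genes, fell along the same course. It had 20.3 and 18.3 CPM at 0 nM, 21.0 and 18.97 CPM at 0.3 nM, 18.5 and 19.3 CPM at 1 nM, 18.7 and 21.5 CPM at 3 nM, 10.2 and 12.8 CPM at 10 nM, and 5.86 and 3.59 CPM at 100 nM. The 8 libraries up to 3 nM lay between 18.3 and 21.5 CPM, with no overlap with 10 nM or 100 nM. At 10 nM against 0.3 nM the log2 fold change was -0.86 (SE = 0.19, adjusted p = 0.00226).

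Pou2f3 encodes a POU homeodomain factor best known from tuft cells and skin. Its values were 25.2 and 22.5 CPM at 0 nM, 19.3 and 21.2 CPM at 0.3 nM, 28.6 and 24.5 CPM at 1 nM, 26.6 and 18.98 CPM at 3 nM, 13.6 and 15.5 CPM at 10 nM, and 3.35 and 3.76 CPM at 100 nM. Both 0.3 nM libraries lay below both 0 nM and both 1 nM libraries, and both 10 nM libraries lay below every library of the lower doses. The second 3 nM library, at 18.98 CPM, was below both 0 nM libraries. Pou2f3 met the 3 nM limit only through the first 3 nM library, the one that stood apart. The log2 fold change of -0.53 at 10 nM against 0.3 nM passed the adjusted p limit (SE = 0.17, adjusted p = 0.032) but not the 1.5-fold limit.

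Mras, a small GTPase of the RAS family that activates the SHOC2 phosphatase complex, and Cobl, an actin nucleator, were the more abundant of the strongly reduced genes. Mras had 54.9 and 59.0 CPM at 0 nM, 61.9 and 61.2 CPM at 0.3 nM, 32.9 and 38.3 CPM at 10 nM, and 19.4 and 11.9 CPM at 100 nM, with 50.6 to 54.9 CPM at 1 and 3 nM. Cobl had 354 and 374 CPM at 0 nM, 389 and 401 CPM at 0.3 nM, 266 and 273 CPM at 10 nM, and 123 and 127 CPM at 100 nM, with 319.5 to 393 CPM at 1 and 3 nM. In both genes the libraries of 10 nM and of 100 nM were separate from each other and from the lower doses. At 10 nM against 0.3 nM the log2 fold changes were -0.84 for Mras (SE = 0.12, adjusted p = 1.92e-05) and -0.60 for Cobl (SE = 0.06, adjusted p = 3.89e-08). The Cobl value lay close to the 1.5-fold limit and missed it without the second 0.3 nM library (-0.58), without the second 10 nM library (-0.56) and with no normalization factors (-0.55).

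Aoah, an enzyme that removes acyl chains from bacterial lipopolysaccharide, fell from 12.03 and 13.3 CPM at 0 nM to 1.34 and 2.12 CPM at 100 nM, with 18.3 and 14.8 CPM at 0.3 nM and 5.33 and 9.48 CPM at 10 nM (10 nM against 0.3 nM, log2 fold change -1.23, SE = 0.23, adjusted p = 0.000511). Liph, a phospholipase that makes lysophosphatidic acid, had 23.3 and 22.6 CPM at 0.3 nM and 14.4 and 14.2 CPM at 10 nM, and its replicates nearly coincided at each of these doses (log2 fold change -0.73, SE = 0.15, adjusted p = 0.0014). Slco2a1, a prostaglandin transporter, was scarce, and its 10 nM libraries were far apart at 1.13 and 4.74 CPM. Its log2 fold change of -1.40 at 10 nM against 0.3 nM (SE = 0.39, adjusted p = 0.0172) lost the call without the first 10 nM library (-0.72) and without the first 0.3 nM library (-1.14).

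The genes that held through 10 nM had another shape. Htra1, a secreted serine protease, had 44.0 and 50.1 CPM at 0 nM, 49.6 and 48.1 CPM at 0.3 nM, 52.2 and 51.0 CPM at 1 nM, 72.0 and 62.6 CPM at 3 nM, 39.5 and 46.3 CPM at 10 nM, and 17.1 and 14.2 CPM at 100 nM. Hmces, which binds and shields abasic sites in single-stranded DNA, had 126 and 122 CPM at 0 nM, 128 and 137 CPM at 0.3 nM, 140.4 and 149 CPM at 1 nM, 177 and 151 CPM at 3 nM, 124 and 146 CPM at 10 nM, and 58.8 and 52.9 CPM at 100 nM. Both genes had their highest mean at 3 nM, and only at 100 nM did both libraries lie below those of every other dose. Neither passed the test at 10 nM against 0.3 nM, where the log2 fold change was -0.24 for Htra1 (SE = 0.10, adjusted p = 0.139) and -0.03 for Hmces (SE = 0.08, adjusted p = 0.877).

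**Figure D2:**
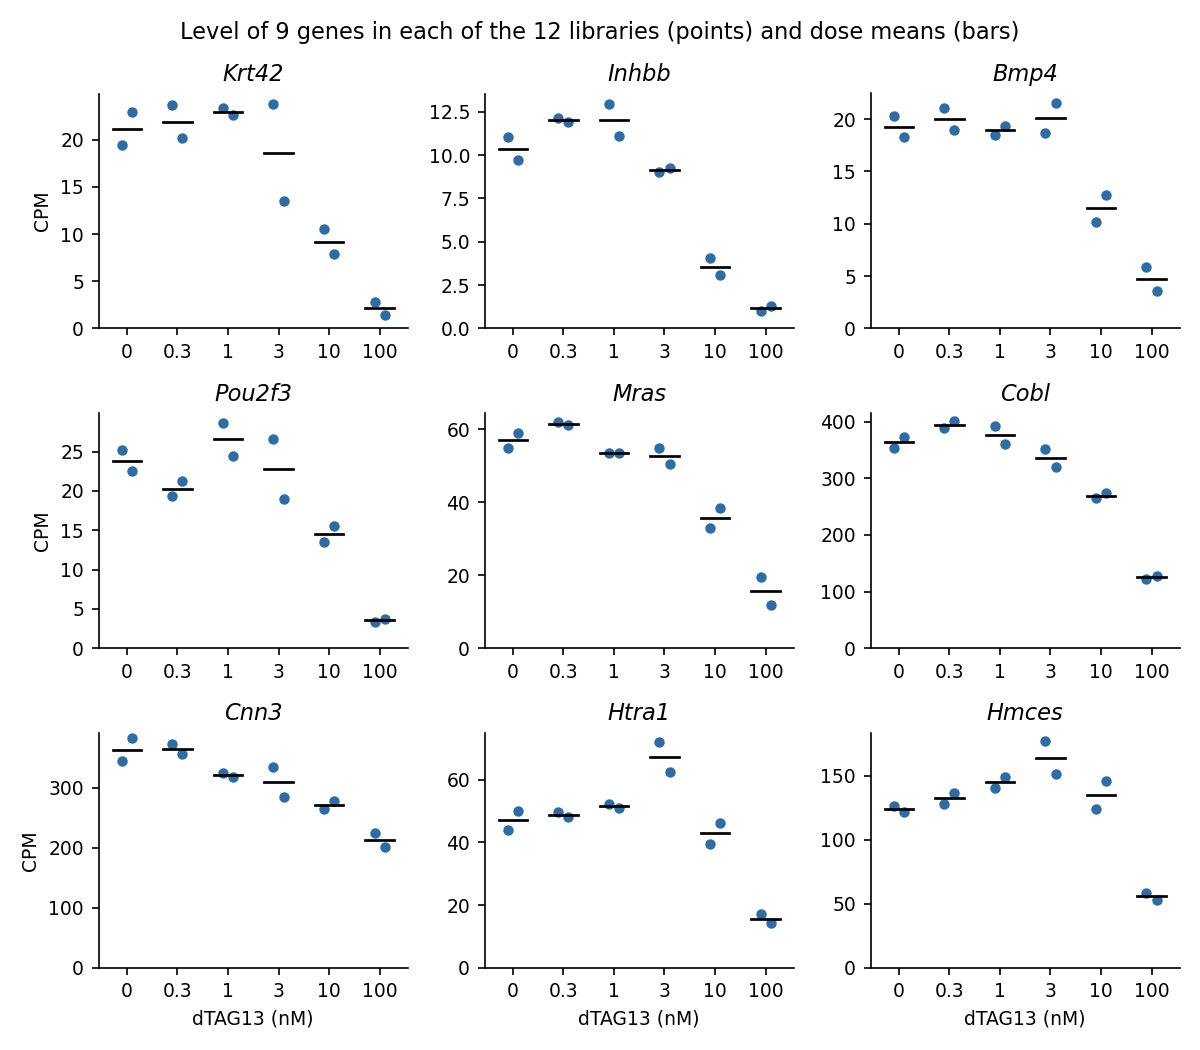
CPM (y axes, from 0) of 9 genes in every library at the 6 dTAG13 doses (x axes, nM), with 2 points per dose for the replicates and a bar for their mean. Krt42, Inhbb, Bmp4, Pou2f3, Mras and Cobl are lower at 10 nM than at every lower dose and lower again at 100 nM, Cnn3 declines in small steps, and Htra1 and Hmces stay up until 10 nM and drop at 100 nM, to 17.1 and 14.2 CPM and to 58.8 and 52.9 CPM.

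Promoter sequence was read for the genes that carry these shapes, to set 5 strongly reduced genes beside Hmces, which held through 10 nM. The 5 do not include Aoah and Pou2f3, which were also strongly reduced. The 250 bases before the RefSeq transcription start are printed 5′ to 3′ on the gene's strand, from the GRCm38.p6 build that mm10 corresponds to, with matches to 9 short motifs in capitals. The motifs were the CCAAT box (CCAAT), the GC box of SP and KLF factors (GGGCGG), the TATA box (TATAAA), the E-box (CACGTG), the AP-1 site (TGANTCA), the octamer (ATGCAAAT), the CRE (TGACGTCA), the ETS site (CCGGAAG) and the YY1 site (AAGATGGC), searched on both strands.
Krt42, chr11:100269952-100270201, minus strand: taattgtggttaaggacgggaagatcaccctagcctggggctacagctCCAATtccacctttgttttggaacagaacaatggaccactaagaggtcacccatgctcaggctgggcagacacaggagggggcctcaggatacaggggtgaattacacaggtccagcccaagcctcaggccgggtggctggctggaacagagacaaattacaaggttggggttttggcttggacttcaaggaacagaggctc
Inhbb, chr1:119422249-119422498, minus strand: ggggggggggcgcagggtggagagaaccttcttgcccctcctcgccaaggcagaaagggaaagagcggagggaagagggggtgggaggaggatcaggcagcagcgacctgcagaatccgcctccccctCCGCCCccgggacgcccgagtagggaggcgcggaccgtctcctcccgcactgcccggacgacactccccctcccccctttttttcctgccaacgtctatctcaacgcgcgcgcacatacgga
Bmp4, chr14:46390670-46390919, minus strand: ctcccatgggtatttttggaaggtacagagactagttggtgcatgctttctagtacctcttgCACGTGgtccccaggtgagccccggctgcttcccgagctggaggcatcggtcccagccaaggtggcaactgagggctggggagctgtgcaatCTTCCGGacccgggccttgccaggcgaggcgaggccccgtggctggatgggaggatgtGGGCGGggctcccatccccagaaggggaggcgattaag
Slco2a1, chr9:103008237-103008486, plus strand: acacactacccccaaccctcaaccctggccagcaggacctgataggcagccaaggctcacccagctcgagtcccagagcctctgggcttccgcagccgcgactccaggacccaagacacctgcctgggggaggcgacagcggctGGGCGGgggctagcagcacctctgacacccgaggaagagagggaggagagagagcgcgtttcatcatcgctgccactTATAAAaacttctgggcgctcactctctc
Mras, chr9:99436713-99436962, minus strand: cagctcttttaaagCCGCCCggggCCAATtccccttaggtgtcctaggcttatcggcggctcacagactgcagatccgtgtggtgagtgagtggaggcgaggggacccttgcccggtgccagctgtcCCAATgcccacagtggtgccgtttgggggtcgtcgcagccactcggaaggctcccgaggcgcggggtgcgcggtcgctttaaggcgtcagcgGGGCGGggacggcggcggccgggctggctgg
Hmces, chr6:87913726-87913975, plus strand: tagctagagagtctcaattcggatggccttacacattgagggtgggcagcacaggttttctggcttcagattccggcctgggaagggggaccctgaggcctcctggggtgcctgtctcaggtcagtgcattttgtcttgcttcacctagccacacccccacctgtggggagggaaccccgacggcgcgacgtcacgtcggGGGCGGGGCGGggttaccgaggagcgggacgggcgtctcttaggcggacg
A TATA box was found in Slco2a1 alone of these 6 stretches, with its first base at -29 from the start, and a GC box was found in all but Krt42. Bmp4 also held an E-box at -188 and an ETS match at -96, and Hmces held GC boxes at -50 and -45 that overlap by a base. Krt42 held a CCAAT box at -202 and no other of these motifs in the 250 bases shown. The window extended to 50 bases after the start, counted below, does hold a TATAAA match for Krt42.

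Over the whole group, promoters in the RefSeq table were matched for 107 of the 131 genes (81.7%) and for 7877 of the 9786 genes with 5 CPM (80.5%), each read from 250 bases before to 50 bases after the start nearest to the counted gene's own. An observed-to-expected CpG ratio over 0.6, the usual mark of a CpG island, was found in 64 of the 107 (59.8%) and in 80.6% of the expressed genes, with medians of 0.649 and 0.805. The share was 45.8% among the genes lowest at 10 nM, 65.3% in the middle class and 61.8% among those that held. GC content had medians of 62.0 and 61.7%. ETS matches were found in 7 of the 107 promoters (6.54%) against 21.4% of those of expressed genes and 8.86% of all 32851 promoters in the table. GC boxes were found in 65.4% against 68.9% of expressed genes (35.7% of the table), CCAAT boxes in 38.3% against 40.1% (37.4%), TATA boxes in 8.41% against 6.47% (13.6%), E-boxes in 9.35% against 11.3% (7.15%) and AP-1 matches in 6.54% against 3.99% (7.81%). The octamer was found in 0.935% against 1.46% (1.74%), the CRE in 0.935% against 3.67% (1.79%) and the YY1 site in 1.87% against 5.65% (2.75%). No test was made of these shares.

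The comparison of the doses that the rule did not use asked whether the group already lay lower at 10 nM than at 0.3 nM. At 10 nM, 29 of the 130 genes were called lower, with an adjusted p under 0.05 and a fold over 1.5, which is 22.3% of them, while 3.4% of all 11378 genes tested were called lower. Without the fold limit the count was 55 of 130, against 7.66% of all genes. The median log2 fold change of the group was -0.33 with quartiles of -0.61 and -0.17, and that of all genes tested was -0.004. Of the 130 genes 117 had a negative value, as had 50.5% of all genes tested. In CPM both 10 nM libraries lay below both 0.3 nM libraries for 86 of the 131 genes, which is so for 21.6% of the 9786 genes with 5 CPM. Beside Krt42, Inhbb, Aoah, Bmp4, Slco2a1, Mras, Cobl and Liph, and Tead4, Trib1, Irak2 and Acacb described further on, the called genes were Pramel6 (-1.32), Tpd52l1 (-1.17), Gna15 (-1.06), Fam25c (-1.02), Ubald2 (-1.01), Robo4 (-1.01), Akap7 (-0.96), 1700066B19Rik (-0.95), Lancl2 (-0.91), Anpep (-0.88), Plaur (-0.85), Trp53i11 (-0.77), Myo1f (-0.74), Myo1e (-0.74), Nek7 (-0.72), Slc8b1 (-0.69) and Psmb10 (-0.61), as log2 fold changes. They include cell-surface proteins (Robo4, a guidance receptor of endothelium, Anpep, an aminopeptidase, and Plaur, the urokinase receptor), signalling proteins (Gna15, a G protein subunit, Akap7, an anchor of protein kinase A, and Nek7, a kinase) and the class I myosins Myo1e and Myo1f. Pramel6 was not called without the first 0.3 nM library (-1.09) or the second 10 nM library (-1.07), and neither Ubald2 (-0.83 to -1.21) nor Psmb10 (-0.538 to -0.687) was called with any of these 4 libraries left out. Dpp4, a cell-surface peptidase, had the highest value of the group, 0.37 (SE = 0.15, adjusted p = 0.121).

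**Figure D3:**
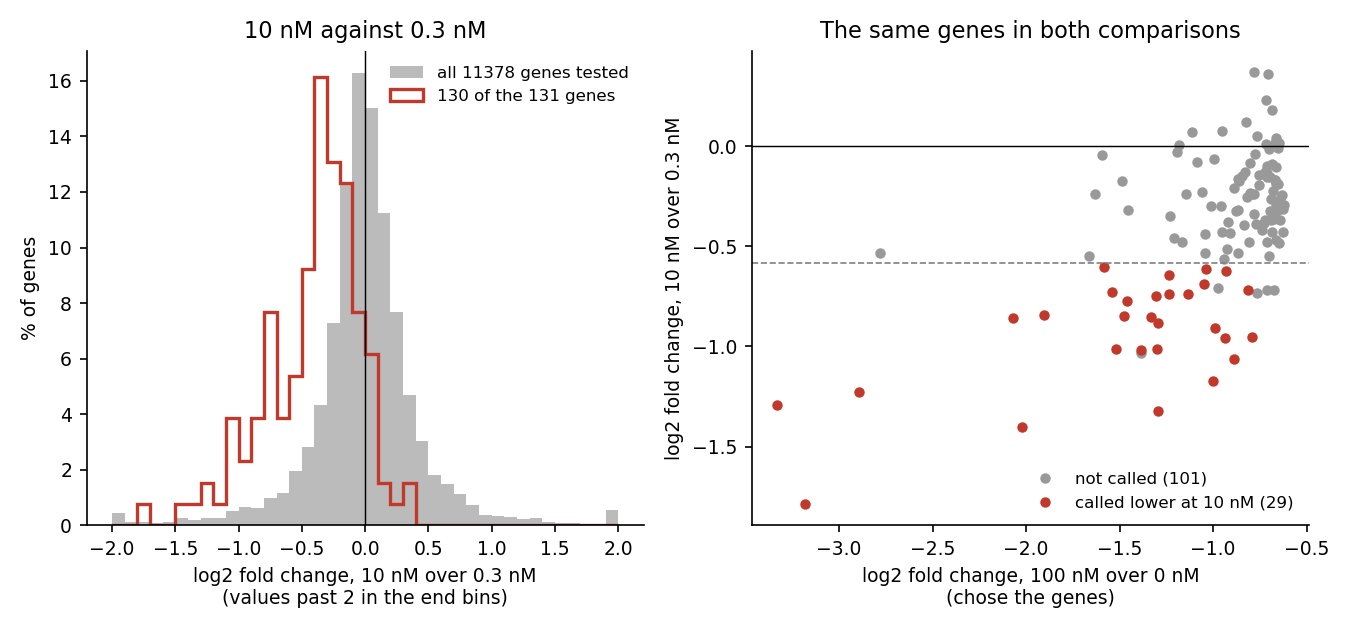
Left, distribution of log2 fold changes at 10 nM over 0.3 nM (x axis) as a percent of genes (y axis) for all 11378 genes tested (grey) and for 130 of the 131 genes (red outline). Right, the same 130 genes by log2 fold change at 100 nM over 0 nM (x axis), which chose them, and at 10 nM over 0.3 nM (y axis), with 29 genes called lower in red and the 1.5-fold limit dashed. The group's median of -0.33 sits left of 0, where the median of all genes lies, and the genes lowest at 100 nM include the lowest at 10 nM.

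Sample numbers in the labels repeat between the 0.3 and 3 nM libraries and those of the other 4 doses, so the 0.3 nM and 10 nM libraries were numbered in different sets. Any difference between those sets and the dose cannot be told apart in this comparison. The same holds wherever 0.3 or 3 nM is set beside one of the other 4 doses. That covers the 3 nM limit of the rule and the high 3 nM means of Htra1 and Hmces. It also covers the steps of Pfkl and Pfkm from 3 to 10 nM given below. With 1 nM in place of 0.3 nM, 17 of 130 genes were called lower at 10 nM (1.72% of all genes). The median log2 fold change was then -0.36. The 1 nM libraries share the numbering of 10 nM but took part in the choice. Against 0 nM, also part of the choice, 27 of 130 were called lower at 10 nM (5.01% of all genes). Of the 29 genes, 16 were also called against 1 nM. Cobl (-0.544), Acacb (-0.577), Tead4 (-0.506), Irak2 (-0.478), Pramel6 (-0.689), Psmb10 (-0.377) and Slco2a1 (-1.16) were not, and Pou2f3 (-0.932) was called against 1 nM but not against 0.3 nM.

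At 0.3 nM against 0 nM, which took part in the choice, edgeR called 0 of the 130 genes lower. With 0.0176% of all genes called there, a count of 0 says little. The median log2 fold change of the group was -0.01. At an unadjusted p under 0.05 by edgeR, 5 were lower. The share of all genes at that limit was not counted, so nothing is read from it. No DESeq2 result is given for that pair. From 10 nM to 100 nM, 32 of the 130 were called lower (0.756% of all genes) with a median log2 fold change of -0.49, a count that the 100 nM limit of the rule favours and from which nothing is read.

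By known role the group was mixed. Of the 131 genes 129 are protein-coding and 2 are long non-coding in RefSeq, and sorting by textbook function, done after the values were known, put 107 of them into 11 classes. The largest were 18 metabolic enzymes, 16 genes of the cytoskeleton and membrane scaffold, 15 of intracellular signalling, 15 surface receptors, adhesion and junction proteins and 13 transcription factors. Medians at 100 nM ran from 47.8% of 0 nM for the 6 secreted ligands and matrix proteins and 53.2% for the cytoskeletal genes to 64.5% for the transcription factors and 65.6% for 5 genes of DNA repair, replication and chromatin. At 10 nM the medians of the same 4 classes were 78.3, 74.9, 79.9 and 84.6%. The classes overlapped widely at both doses.

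**Figure D4:**
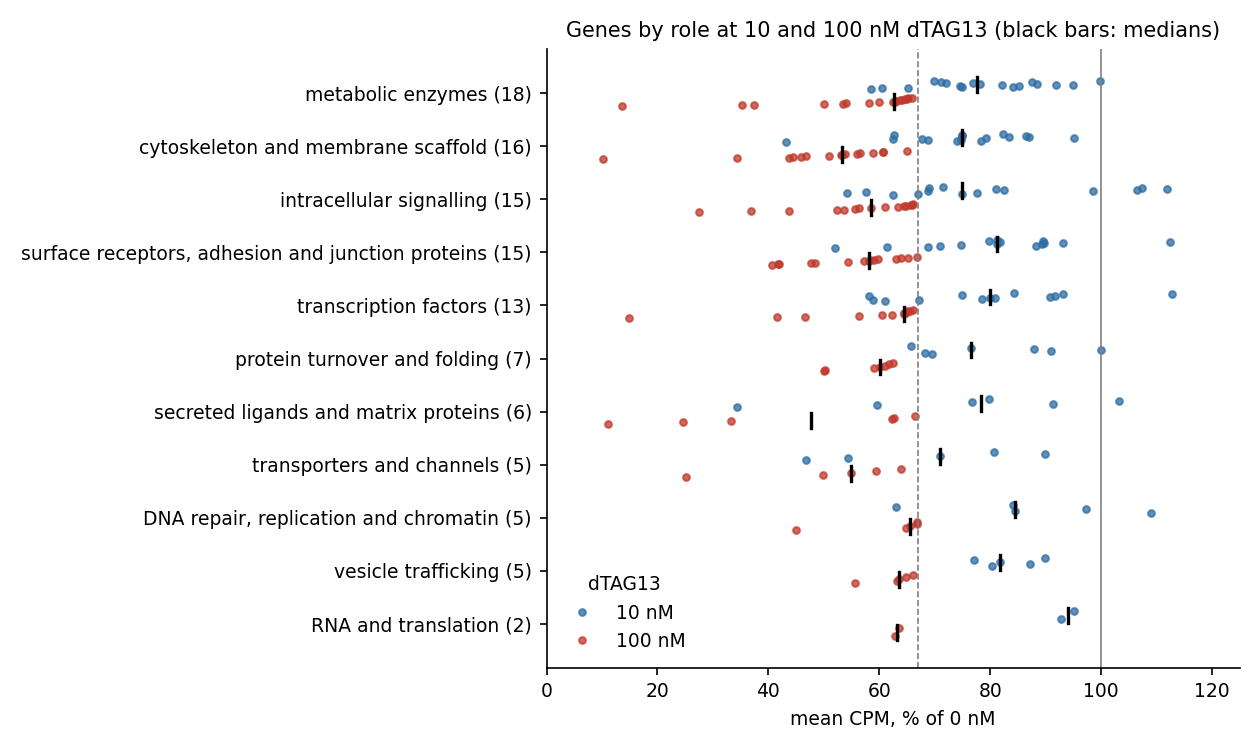
Mean CPM as a percent of 0 nM (x axis) for the 107 genes placed in 11 role classes (y axis, with the number of genes), at 10 nM (blue) and 100 nM (red). Black bars are medians, the dashed line marks 67% and the solid line 100%. The 100 nM points all lie left of the dashed line by definition, and the classes overlap at 10 nM, where medians run from 70.9% for transporters and channels to 94.0% for the 2 genes of RNA and translation.

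Signalling ligands in the group came from the TGF-beta and WNT families. Beside Bmp4 and Inhbb stood Wnt5b, a non-canonical WNT ligand, with 16.5 and 16.9 CPM at 0.3 nM, 17.9 and 22.98 CPM at 10 nM and 12.1 and 12.7 CPM at 100 nM. Its 10 nM libraries were not below those of 0.3 nM (log2 fold change 0.23, SE = 0.15, adjusted p = 0.369). Ltbp4, which tethers latent TGF-beta to the matrix, had 97.6 and 99.8 CPM at 0.3 nM and 73.9 and 83.3 CPM at 10 nM (log2 fold change -0.38, SE = 0.09, adjusted p = 0.00296), under the 1.5-fold limit. In the list of BMP and ID genes Bmp4 was the sole member of the group among 15 with 5 CPM. It was the sole gene of the 18 tested that was called lower at 100 nM, with none called higher. Of all genes tested, 6.83% were called lower and 4.36% higher. The median log2 fold change of these 18 genes at 100 nM was 0.01.

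Among transcription factors, Tead4, the TEA-domain partner of YAP, had 36.0 and 40.9 CPM at 0.3 nM and 23.7 and 23.5 CPM at 10 nM, and 16.1 and 13.2 CPM at 100 nM. The doses were separate, and the log2 fold change at 10 nM against 0.3 nM was -0.75 (SE = 0.13, adjusted p = 0.000287). Tbx3, a T-box factor of the naive pluripotency network, was the most abundant factor, with 195 and 183 CPM at 0.3 nM, 146 and 153 CPM at 10 nM and 106 and 119.6 CPM at 100 nM (10 nM against 0.3 nM, log2 fold change -0.39, SE = 0.07, adjusted p = 0.000364, under the 1.5-fold limit). It entered the group narrowly, at 85.2% of 0 nM at 3 nM. Hes1, a NOTCH-responsive repressor, had 34.4 and 33.1 CPM at 0.3 nM and 23.4 and 33.2 CPM at 10 nM, an overlap between doses (log2 fold change -0.32, SE = 0.13, adjusted p = 0.117). Etv1, an ETS factor induced by FGF and ERK, had a log2 fold change of -0.72 (SE = 0.24, adjusted p = 0.0515), which was called with the likelihood ratio test, without the filter on low values and without the second 10 nM library (-1.13). Bcl6, a BTB repressor, lay at 58.8% of 0 nM at 10 nM and 46.7% at 100 nM. Of 24 naive pluripotency genes tested, 4 were called lower and 2 higher at 100 nM (6.83% and 4.36% of all genes), and Tbx3 was the sole member of the group among them.

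Cytoskeletal genes were among the most abundant members. Compared per kb of exon, Cnn3, an actin-binding calponin, had the highest 0 nM level of the 131 genes at 181 ± 14 RPKM (SD, n = 2), followed by Hmces at 88.2 ± 2.3 and Rpa3, a subunit of the single-strand binding complex RPA, at 71.0 ± 0.69. Cnn3 had 373 and 357 CPM at 0.3 nM, 265 and 278 CPM at 10 nM and 225 and 202 CPM at 100 nM, and the doses did not overlap (10 nM against 0.3 nM, log2 fold change -0.48, SE = 0.06, adjusted p = 5.79e-06). Ahnak, a giant scaffold protein beneath the plasma membrane, had the most counts, with 690.2 and 729 CPM at 0.3 nM and 509.6 and 547 CPM at 10 nM. Its log2 fold change was -0.48 as well (SE = 0.05, adjusted p = 3.86e-07). Cnn3 and Ahnak passed the adjusted p limit and not the 1.5-fold limit, as did Tpm1, tropomyosin 1, at -0.31 (SE = 0.08, adjusted p = 0.00711), while Anxa2 and S100a6, membrane-binding calcium proteins, were near 5 CPM and did not pass (adjusted p = 0.29 and 0.212).

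Of the actin and SRF-target list, 4 of 41 genes with 5 CPM were members of the group, and 3 were early-falling. Over the 43 genes tested 13 were called lower at 100 nM and none higher (6.83% of all genes were called lower and 4.36% higher), and at 10 nM against 0.3 nM 5 were lower and none higher (3.4% and 2.29% of all genes). The list's medians were -0.43 and -0.26 on the log2 scale. Des, Cnn2 and Tagln of this list had fallen to 28.1, 59.0 and 31.6% of 0 nM by 3 nM and so stood outside the group.

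The epithelial list of junction and keratin genes held 3 members among 31 genes with 5 CPM, with Krt42 and Gjb5 among them, and 5 early-falling genes. Among its 37 genes tested 14 were called lower and 2 higher at 100 nM (6.83% and 4.36% of all genes). Gjb5, a connexin of gap junctions, lies on chromosome 4 at 127354809 to 127358164 of mm10. It had 16.9 and 17.1 CPM at 0.3 nM, 13.6 and 16.05 CPM at 10 nM and 9.54 and 8.98 CPM at 100 nM. Its 10 nM libraries lay below those of 0.3 nM, and the difference did not pass the test (log2 fold change -0.25, SE = 0.17, adjusted p = 0.368). Krt17, another type I keratin on that list, was lower at 3 nM (76.0% of 0 nM) and therefore no member, though it reached 9.60% at 100 nM.

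Metabolic members were spread over several pathways. Acacb, the mitochondrial acetyl-CoA carboxylase, had 79.3 and 76.4 CPM at 0.3 nM and 52.1 and 52.3 CPM at 10 nM (log2 fold change -0.62, SE = 0.09, adjusted p = 3.71e-05), and it missed the 1.5-fold limit narrowly without the second 10 nM library (-0.566) and with no normalization factors (-0.575). Me1, the cytosolic malic enzyme that supplies NADPH, had a log2 value of -0.48 (SE = 0.11, adjusted p = 0.00273) and missed the 1.5-fold limit. Acacb and Me1 were 2 of 36 genes of the cholesterol and fatty acid list with 5 CPM. Of the 36 tested on that list, 5 were lower and none higher at 100 nM (6.83% and 4.36% of all genes). Pfkl and Pfkm, the liver and muscle forms of phosphofructokinase, reached 69.8 and 71.1% of 0 nM at 10 nM and 65.9 and 65.1% at 100 nM. For both, the step from 3 to 10 nM was larger than that from 10 to 100 nM. Pfkp, the platelet form, was at 66.7% by 3 nM and was not a member. In the glycolysis and hypoxia list 6 of 34 genes tested were lower and 3 higher at 100 nM (6.83% and 4.36% of all genes).

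Repair and signalling members completed the picture. Brca2, the mediator of homologous recombination, had 196 and 197 CPM at 0.3 nM, 157 and 176 CPM at 10 nM and 133 and 131 CPM at 100 nM (10 nM against 0.3 nM, log2 fold change -0.29, SE = 0.07, adjusted p = 0.00398, under the 1.5-fold limit). Irak2, a kinase-like adaptor of interleukin-1 and Toll-like receptors, changed by -0.64 (SE = 0.14, adjusted p = 0.00251), and Trib1, a pseudokinase that steers substrates to the COP1 ligase, by -0.85 (SE = 0.17, adjusted p = 0.000912). Rras and Dusp14, a RAS-family GTPase and a dual-specificity phosphatase, had log2 fold changes of -0.01 and 0.02 at 10 nM against 0.3 nM (adjusted p = 0.985 and 0.965), with 106 and 107% of 0 nM at 10 nM. With Etv1 they were 3 of the 43 ERK and MAPK genes with 5 CPM, and of the 47 tested on that list 4 were lower and 1 higher at 100 nM (6.83% and 4.36% of all genes). In the list of 52 cell cycle and replication genes with 5 CPM there was no member, and 1 of its 54 genes tested was lower at 100 nM, against 6.83% of all genes.

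Across the 25 lists, 23 of the 131 genes were found in 14 lists, and the expressed list genes numbered 694. Of the genes with 5 CPM, 1.34% were members. Lists without a member included the mSWI/SNF subunits (26 genes with 5 CPM), Polycomb and DNA methylation (32), PI3K, AKT, mTOR and IGF (28), LIF and STAT3 (14), and autophagy and lysosome (37). The Nodal and TGF-beta, WNT, NOTCH, Hippo, axon guidance, matrix and integrin, and p53 lists held a member each, which were Ltbp4, Wnt5b, Hes1, Tead4, Epha4, Itgb5 and Ei24. No list held more than 4.

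Members lay on every autosome and on the X chromosome. Chromosome 9 held the most members, 14 of its 552 genes with 5 CPM (2.54%), and chromosome 16 held 10 of 311 (3.22%). Exon length had a median of 3423 bases against 3046 in the expressed genes, and the gene's span on the genome 31665 against 22644 bases. Median level at 0 nM was 6.98 RPKM against 11.5 RPKM for all expressed genes and 4.62 RPKM for the early-falling genes. The members Ak4 and Dnajc6 lay 28876 bases apart and Rras and Fcgrt 71348. Pmel, Pfkm, Wnt5b, Serhl and D730005E14Rik overlap another gene with 5 CPM, and since reads were counted without strand their counts could hold reads of the partner.

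Membership depended on narrow margins. Just inside the 1 nM limit lay Psmb10 at 85.3%, Mppe1 at 85.4% and Pvrl3 at 85.7% of 0 nM, and just outside lay Smap1 at 84.9%, Trafd1 at 84.4% and Aim2 at 84.1%. At the 3 nM limit Tbx3, Cnn3 and Irak2 (85.2, 85.2 and 85.3%) were inside, and Rab11fip5, Rrp8 and Ccl25 (84.9, 84.8 and 84.7%) were outside. Ccl25, a chemokine gene, went on to 34.6% at 10 nM and 23.2% at 100 nM, lower than most members. At the 100 nM limit Pvrl3, Brca2 and Rpa3 (66.8% each) were inside, and Tmem79, Tpst2 and Rnd1 (67.1, 67.2 and 67.3%) were outside.

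The rule was also applied to the libraries of each replicate number alone, a check added after the data were seen. The first libraries gave 187 genes, of which 33 met the whole rule in the second libraries and 129 were at or under 0.67 of 0 nM there at 100 nM. The second libraries gave 105 genes, of which 33 met the rule in the first and 62 the 100 nM limit. The genes chosen on the first libraries had medians in the second of 81.4% at 3 nM, 77.0% at 10 nM and 55.8% at 100 nM, and those chosen on the second had 100%, 77.7% and 64.5% in the first. With 4 scalings of the libraries (totals, totals without Rn45s, DESeq2 size factors and TMM) 83 of the 131 genes met the rule every time, among them Bmp4, Aoah, Pou2f3, Mras, Cobl, Htra1 and Hmces, but not Krt42, Inhbb, Tead4, Tbx3 or Cnn3. Of these 83 genes 16 were called lower at 10 nM against 0.3 nM, with a median log2 fold change of -0.29.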

How the data were processed

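RNA-seq of 12 libraries was analysed, 2 for each of 6 dTAG13 doses. The authors trimmed reads with Trim Galore, aligned them to mm10 with HISAT2 and counted read pairs on exons per gene symbol with featureCounts 2.0.1, without strand, and deposited these counts with no normalization. Totals ran from 4663484 to 6375582 per library, and p-values measure the spread between these libraries.

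CPM was the count over the library total, and RPKM was CPM per kb of the exon length deposited with the counts. For the tests, edgeR 4.0.16 (R 4.3.3, TMM factors from 0.947 to 1.06, quasi-likelihood test, all 6 doses in 1 fit) covered the 11378 genes whose mean over the libraries reached 1 RPKM, as the study filtered. Calls needed a Benjamini-Hochberg adjusted p under 0.05 over all genes tested and a fold over 1.5. The study names edgeR's likelihood ratio test, which was an alternative, as were DESeq2 1.42.0 with its Wald test and its size factors. On simulated counts for 10 nM against 0.3 nM (11378 genes) the steps called 60 of 100 genes lowered 1.5-fold and 88 of 100 lowered 2-fold, with 15 unchanged genes called and no fold limit.

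The 131 genes, the gene lists and the tests were chosen with earlier results of these data known. Genes named are the 12 lowest at 100 nM, the 6 highest in RPKM at 0 nM, the 5 lowest and 5 highest at 10 nM against 0.3 nM, the 3 nearest each side of every limit and up to 4 per gene list, with predicted and Riken genes left out of the first 3 sets. Ahnak, Trib1, Bcl6, the other genes called lower at 10 nM, Arhgef10, Pfkp, Krt17, Des, Cnn2, Tagln, Ak4, Dnajc6, Fcgrt, Serhl and D730005E14Rik were named after their values were seen. Role classes were made by hand. Promoter sequences are RefSeq's (GRCm38.p6), matched by symbol or an older symbol. Same-numbered libraries did not deviate together (correlations of -0.12 to 0.0978), so numbers were not used as pairs. A gene that the naming rule selects is not reported here.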

Additional observations from a re-analysis of the deposited data

How the results depend on the processing

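The number of genes that meet the rule moved most with its own limits. It was 199 and 78 with limits of 0.80 and 0.90 at 1 and 3 nM, 75 and 275 with limits of 0.60 and 0.75 at 100 nM, and 83 with agreement over all 4 scalings. Leaving out a library gave 99 to 164 genes, of which 84 to 122 were among the 131. The overlap was 84 genes without the first 0 nM library and 91 without the second. TMM scaling gave 147 genes, of which 83 were among the 131.

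At 10 nM against 0.3 nM, 29 genes were called lower as reported, 17 with 1 nM in place of 0.3 nM, 55 without a fold limit, 16 among the genes that met the rule under all 4 scalings, and 20 to 23 with a library left out. The first setting changes the libraries and the second the limit, and the cause was not tested otherwise. DESeq2's Wald test called 21 and a fit with the replicate block 28. The median log2 fold change of -0.327 became -0.278 with no normalization factors, -0.37 with no filter on low values, -0.292 over the genes under all 4 scalings, and -0.332 to -0.381 with a library left out. At 100 nM against 0 nM 118 genes became 75 over the genes under all 4 scalings, which number 83, and the replicate block gave 117.

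None of the named genes that turned sign was called as reported. With no normalization factors Hmces became 0.026 and Rras 0.0355. With no filter Dusp14 became -0.0242. With 1 nM in place of 0.3 nM Dusp14 became -0.132, Spn -0.364 and Arsk -0.232. With a library left out, Hmces ran from -0.0817 to 0.034, Mppe1 from -0.464 to 0.141, Dusp14 from -0.208 to 0.22, Rras from -0.146 to 0.13, Epha4 from -0.24 to 0.0808, Spn from -0.182 to 0.384, Tmem45a from -0.455 to 0.639 and Arsk from -0.394 to 0.871. Of the 131 genes 28 had under 10 CPM at 0 nM.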
